A study of Mus musculus with 3 samples.

Results

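The genes described here dipped early in the osteogenic culture of mouse bone marrow stromal cells and came back later. Each was at least 2-fold lower on day 3 than on day 0, and at least 2-fold higher on day 21 than on day 3. Of 12221 genes whose probe was well above background on all 3 arrays, 59 were members, out of 20279 genes with a named probe. The rule used the measured differences themselves, so both differences are a description of the members and support nothing. It left out Nr1d1, Nr1d2 and every symbol starting Col, Sema or Hox. That removed 5 genes that passed both steps, namely Nr1d1, Nr1d2, Col10a1, Col8a2 and Sema3c.

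The 3 groups were day 0, day 3 and day 21, with 1 array each. All cells were primary mesenchymal stem cells (MSCs) from the bone marrow of male mice aged 8 weeks, kept in medium with 10% fetal bovine serum. Day 0 cells were not induced. Day 3 and day 21 cells had grown for that time with ascorbic acid at 50 µg/mL, which collagen maturation needs, and beta-glycerophosphate at 10 mM, a source of phosphate for mineral. Total RNA was labelled with Cy3 and hybridised to Agilent mouse arrays read in 1 colour. With 1 array per day there was no replicate and no test, and no p-value is given.

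Bone marrow MSC cultures are mixed populations of stromal progenitors that can take osteoblast, adipocyte or cartilage fates. Bone morphogenetic protein (BMP), TGF-beta and Notch signals steer these choices, and matrix proteins outside the cell store and present their ligands. As cells settle into a mineralising layer they also change their lipid metabolism, cytoskeleton and surface receptors.

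All 6 stromal progenitor markers were above background on every day, with a summed signal of 55541 on day 0, 111388 on day 3 and 112895 on day 21. Of 6 osteoblast markers, 3, 5 and 5 were above background on days 0, 3 and 21, with summed signals of 726, 2579 and 6542. Sp7, a defining osteoblast transcription factor, was not above background on any day. The 6 adipocyte markers summed to 1359, 6458 and 188608, with 4, 6 and 6 above background. The 5 cartilage markers summed to 903, 3939 and 54660. Of 5 macrophage markers 2 were above background on each day, and Ptprc, Adgre1 and Mrc1 were not. The 5 summed to 10220, 9148 and 16048, of which Itgam gave 9633, 8333 and 15404. Csf1r, the other marker above background, had 575, 799 and 627. No skeletal muscle marker of 5 was above background on any day. These levels moved over the same days as the members, and their part in the members' values was not tested. In bulk RNA, fewer cells of a type and less RNA per cell cannot be told apart. The day 0 and day 21 arrays shared slide 1 and scan 1, while the day 3 array was alone on slide 2 and scan 2. The dip therefore cannot be told apart from the slide, and day 21 against day 0 is the comparison within a slide.

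Across all measured genes, 907 (7.42%) were at least 2-fold lower on day 3 than on day 0. On the same day 957 (7.83%) were at least 2-fold higher. On day 21, 775 (6.34%) exceeded their day 3 level by 2-fold or more, and 883 (7.23%) fell short of it by as much. Both steps together were passed by 64 genes (0.524%) before names were left out. The mirror pattern, at least 2-fold higher on day 3 and then at least 2-fold lower on day 21, was held by 74 genes (0.606%), so the dip was about as frequent as its opposite, although with scaling to spike-in controls the counts were 360 and 26. Of the genes lower on day 3, 843 did not come back by 2-fold. In the members, day 3 minus day 0 had a median of -1.43 on the log2 scale, with a range of -2.66 to -1.001. Day 21 minus day 3 had a median of 1.36, with a range of 1.01 to 3.92. The medians over all measured genes were -0.08 and -0.12.

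**Figure D1:**
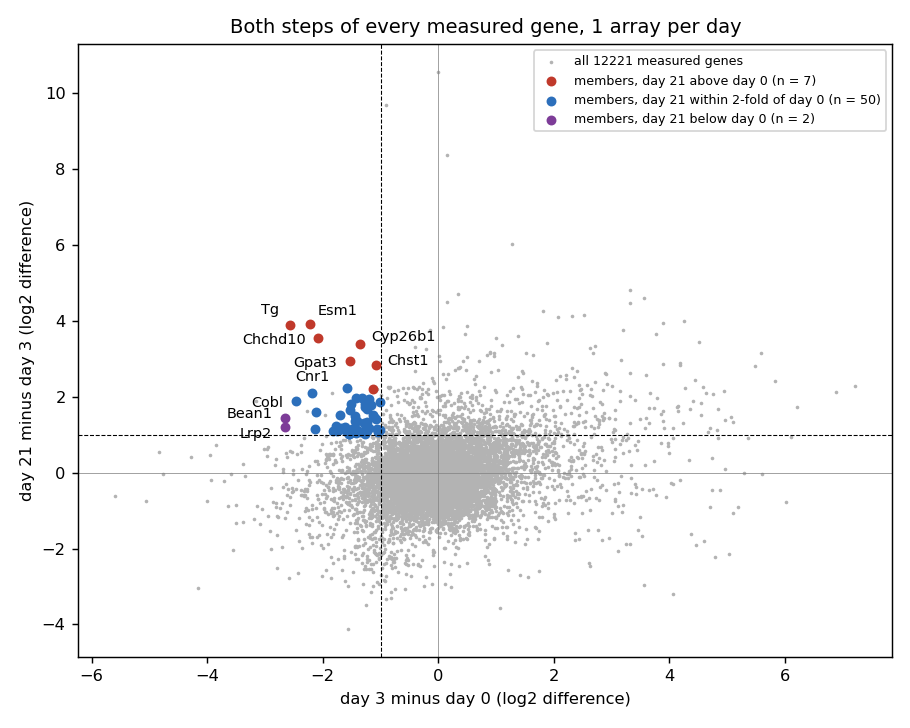
Day 21 minus day 3 (vertical axis) against day 3 minus day 0 (horizontal axis), both as log2 differences, for all 12221 measured genes in grey and the 59 members in colour, with the 2-fold limits dashed. Of the members, 7 ended at least 2-fold above day 0 (red), 50 within 2-fold of it (blue) and 2 at least 2-fold below it (purple).

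Most members came back to about their starting level. On day 21, 50 of the 59 were within 2-fold of day 0 (84.7%), against 70.3% of all measured genes. The median of day 21 minus day 0 was -0.04 on the log2 scale, with 28 members above their day 0 level and 31 below it, and 31 members lay within 0.5 of it. This difference is the sum of the 2 steps that the rule used, so the rule limits it and these shares are a description. Of the 843 genes that did not come back by 2-fold, 14.7% were within 2-fold of day 0 on day 21, and by their choice all of them lie below day 0.

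**Figure D2:**
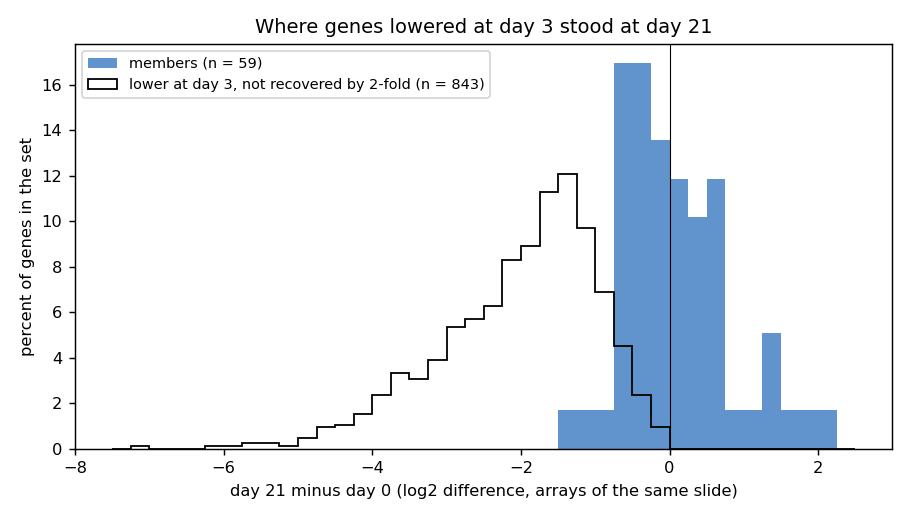
Day 21 minus day 0 (horizontal axis, log2 difference, arrays of the same slide) as the percent of genes in each set (vertical axis), for the 59 members (blue bars) and the 843 genes that were lower on day 3 and did not come back by 2-fold (black outline). The members centre at -0.04 and the other genes at -1.82.

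Of the members, 7 ended at least 2-fold above day 0, while 12.9% of all measured genes (1571) did. They were Cyp26b1, Chst1, Esm1, Chchd10, Gpat3, Tg and Adrb3. Only 2 members, Lrp2 and Bean1, ended at least 2-fold below day 0, while 16.9% of all measured genes (2062) did. By the rule, a member could end 2-fold below day 0 only with a first difference of at least 4-fold. To end 2-fold above it, the second difference had to reach 4-fold. Both counts were thus held low by the rule. The difference to day 3 reached 4-fold in 9 members, and the difference from day 3 to day 21 reached 4-fold in 9 and 8-fold in 4. Both reached 4-fold in 4 members, namely Tg, Esm1, Cnr1 and Chchd10. With Cobl these were the 5 genes that passed both steps at 3-fold. The promoters of 4 members are shown here because they let the dip be set beside the sequence at the start of the gene. They were not chosen by size of return alone, since Gpat3 and Chst1 had larger returns than Cnr1. Each runs from 250 bases before to 50 bases after the start, from RefSeq on GRCm38.p6, 5′ to 3′ on the gene's strand. Capitals mark the matches described further down: a D-box core for Esm1, a nuclear receptor core site for Chchd10, GC boxes and a TATA box for Cyp26b1, and an E-box for Cnr1. Cnr1 also has windows not printed here. The window starting at 33924014 holds GC boxes and a nuclear receptor core site, and that starting at 33926130 holds none of the motifs searched.
Esm1, chr13:113209409-113209708, plus strand: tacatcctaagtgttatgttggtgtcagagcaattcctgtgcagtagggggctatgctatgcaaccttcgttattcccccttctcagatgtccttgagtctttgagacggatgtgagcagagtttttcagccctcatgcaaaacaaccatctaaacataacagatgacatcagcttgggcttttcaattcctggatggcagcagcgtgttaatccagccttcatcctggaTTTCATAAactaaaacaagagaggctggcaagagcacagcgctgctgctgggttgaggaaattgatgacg
Chchd10, chr10:75932880-75933179, plus strand: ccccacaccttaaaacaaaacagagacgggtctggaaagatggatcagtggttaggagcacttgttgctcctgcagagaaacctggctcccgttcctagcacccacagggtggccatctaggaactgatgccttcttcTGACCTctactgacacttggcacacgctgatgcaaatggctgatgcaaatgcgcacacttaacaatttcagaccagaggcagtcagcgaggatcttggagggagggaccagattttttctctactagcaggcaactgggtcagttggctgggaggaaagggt
Cyp26b1, chr6:84593761-84594060, minus strand: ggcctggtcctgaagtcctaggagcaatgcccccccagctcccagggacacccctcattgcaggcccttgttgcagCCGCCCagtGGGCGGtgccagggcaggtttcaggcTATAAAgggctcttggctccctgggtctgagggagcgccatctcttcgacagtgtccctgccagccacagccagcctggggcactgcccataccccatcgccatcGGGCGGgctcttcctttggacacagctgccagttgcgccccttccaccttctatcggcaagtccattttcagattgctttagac
Cnr1, chr4:33924394-33924693, plus strand: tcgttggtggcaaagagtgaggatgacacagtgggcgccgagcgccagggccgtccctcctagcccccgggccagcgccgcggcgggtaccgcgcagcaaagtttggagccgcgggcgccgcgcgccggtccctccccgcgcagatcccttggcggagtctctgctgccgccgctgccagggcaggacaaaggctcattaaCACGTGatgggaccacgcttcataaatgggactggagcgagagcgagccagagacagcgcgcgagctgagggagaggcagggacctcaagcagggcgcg

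The secreted proteins held the largest returns. Esm1 encodes endocan, a proteoglycan first described in endothelial cells. Its signal was 590 on day 0, 129 on day 3 and 2129 on day 21. It was 4.65-fold lower on day 3 than on day 0, and 15.1-fold higher on day 21 than on day 3. Day 21 was the highest of the 3 days by 3.26-fold over day 0. Of 5 endothelial markers, 3, 4 and 3 were above background on days 0, 3 and 21, with summed signals of 3629, 4973 and 3230, of which Kdr gave 3588, 4902 and 3173. Their part in the Esm1 values was not tested. The defining endothelial gene Cdh5 was not above background on any day. Tg encodes thyroglobulin, the protein from which the thyroid makes its hormones. Its signal was 157, 26.9 and 438 on days 0, 3 and 21. It was 5.91-fold lower on day 3 than on day 0 and 14.9-fold higher on day 21 than on day 3. Tg thus was near the dim end of the array on day 3 and above its start on day 21.

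The other 5 secreted proteins moved less. Timp3, an inhibitor of matrix metalloproteinases that stays bound to the matrix, was among the brightest members at 16825, 7896 and 23613 on days 0, 3 and 21. It was 2.16-fold lower on day 3 than on day 0 and 2.74-fold higher on day 21 than on day 3. The other measured inhibitors of the family did not share its dip. Timp1 differed by -0.22 on day 3 against day 0 and Timp2 by 0.13 (log2 differences), and on day 21 against day 3 by -0.26 and -0.06. The sign of Timp2 in the first step, and of both in the second, turns with spike-in scaling. F10, the clotting protease factor X, had 3685, 1245 and 2855 on days 0, 3 and 21, and it was the only secreted member below its day 0 level on day 21. Its second probe was not above background on any array. Stc2, a stanniocalcin that acts as a secreted glycoprotein hormone, had 62.0, 26.1 and 94.0. Adamtsl3, a matrix protein related to the ADAMTS proteases, and Cela3a, a pancreatic elastase, were dimmer, with day 3 signals of 14.2 and 50.8. The family of Cela3a holds near-identical copies, so its probe may read more than 1 gene.

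The 9 enzymes and mitochondrial proteins had the largest median return of the role groups, 1.95 on the log2 scale for day 21 minus day 3. They held 4 of the 7 members that ended at least 2-fold above day 0. Cyp26b1, which breaks down retinoic acid, had a signal of 2522 on day 0, 1002 on day 3 and 11357 on day 21. It was 2.55-fold lower on day 3 than on day 0, 10.4-fold higher on day 21 than on day 3, and 4.07-fold higher on day 21 than on day 0. That last ratio was the largest among the members. Chchd10, a protein of the mitochondrial intermembrane space, had 1726, 414 and 5229. It was 4.23-fold lower on day 3 than on day 0 and 11.6-fold higher on day 21 than on day 3. Its close relative Chchd2 differed by -0.003 and -0.01 over the same steps (log2 differences), at signals between 78966 and 86823.

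Gpat3 catalyses the first acylation of glycerol-3-phosphate on the way to triglyceride. Its signal was 155, 54.4 and 454 on days 0, 3 and 21, which is 2.89-fold lower on day 3 than on day 0 and 7.65-fold higher on day 21 than on day 3. Chst1, a sulfotransferase that acts on keratan sulfate, had 565, 271 and 2106. It was 2.11-fold lower on day 3 than on day 0 and 7.10-fold higher on day 21 than on day 3. Gpt2, the mitochondrial alanine aminotransferase, had 563, 228 and 961, whereas its cytosolic relative Gpt was higher on each later day, by 0.85 on day 3 against day 0 and 3.09 on day 21 against day 3 (log2 differences).

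The remaining 4 ended near or below day 0. Acot2, a mitochondrial acyl-CoA thioesterase, had 92.2, 21.4 and 51.9 on days 0, 3 and 21, and stayed 1.97-fold below day 0 on day 21. Its cytosolic neighbour Acot1 went the other way, 2.74 higher on day 3 against day 0 and 0.67 lower on day 21 against day 3 on the log2 scale. The sequences of Acot1 and Acot2 are close, and cross-hybridisation was not tested. Scd3, a stearoyl-CoA desaturase, had 78.4, 33.8 and 78.6, while another Scd3 probe above background on all 3 arrays was 0.52 higher on day 3 against day 0 and 2.49 higher on day 21 against day 3. That second probe moved like Scd1 (0.47 and 3.66), so the dip of Scd3 rests on 1 of its probes. Uprt lay just inside the threshold on day 21 against day 3, at 1.01. The adipocyte list held no member. Of its 12 measured genes, 10 were at least 2-fold higher on day 21 than on day 3, against 6.34% of all measured genes.

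**Figure D3:**
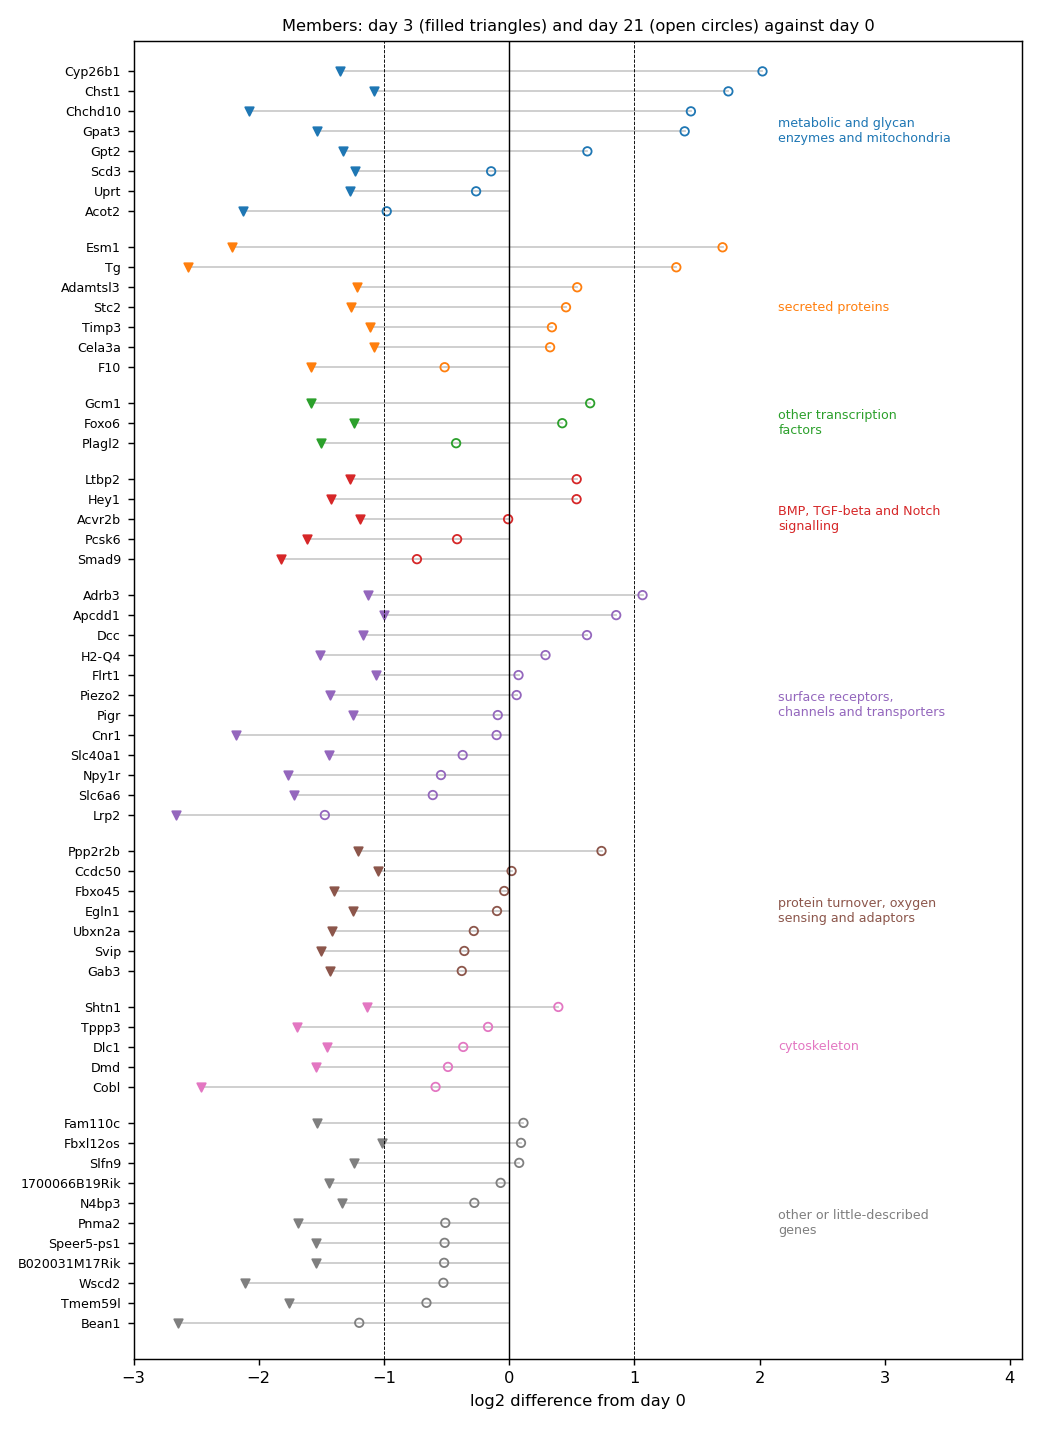
Log2 difference from day 0 on day 3 (filled triangles) and day 21 (open circles) for the members, grouped by role, with the 2-fold limits dashed; 1 member is not drawn. The triangles lie at or below the lower dashed line by the rule, and the circles run from -1.47 in Lrp2 to 2.02 in Cyp26b1.

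Among BMP, TGF-beta and Notch genes 5 were members. Ltbp2, a microfibril protein of the latent TGF-beta binding family, was the brightest of all members. Its signal was 27300 on day 0, 11467 on day 3 and 43938 on day 21. It was 2.41-fold lower on day 3 than on day 0 and 3.51-fold higher on day 21 than on day 3. Hey1, a repressor induced by Notch and BMP signals, had 287, 109 and 462. It was 2.68-fold lower on day 3 than on day 0 and 3.89-fold higher on day 21 than on day 3. Both ended 1.45-fold above day 0 on day 21. Smad9, a signal transducer of BMP receptors, had 85.6, 24.5 and 56.9, and so came back only in part. Acvr2b, a type II receptor for activins, had 266, 118 and 292, and returned to its day 0 level. Pcsk6, a convertase that cleaves growth factor precursors, had 1412, 469 and 1172.

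Genes of the BMP and TGF-beta list took several courses. Of its 27 measured genes, 13 were at least 2-fold lower and 2 at least 2-fold higher on day 3 than on day 0. Over all measured genes 7.42% were lower and 7.83% higher by as much. The list median was -0.96 on day 3 against day 0, beside -0.08 for all measured genes. On day 21 against day 3, 6 of the 27 were at least 2-fold higher and 2 lower, beside 6.34% and 7.23% of all measured genes. The list median of that step was 0.20. Smad9, Hey1 and Ltbp2 were its 3 members. Of the 13 lowered genes, these 3 came back by 2-fold and the others did not. Among all 907 genes lowered on day 3, 64 came back by 2-fold. Inhba, an activin subunit, had 13802, 2135 and 1346 on days 0, 3 and 21, and the BMP antagonist Grem1 had 9443, 2474 and 2172. The inhibitory Smad genes differed in their return. Smad7 had 487, 86.0 and 98.4, and stayed low. Smad6 had 1082, 219 and 449, and missed the limit with a second difference of 0.91. With spike-in scaling Smad6 and Bmp7 passed both steps. BMP ligands followed another course. Bmp4 had 1204, 1163 and 3262, with no dip, and Bmp7 had 76.9, 59.3 and 417. Bmp2 was above background on days 0 and 21 only. It was at least 2.28-fold lower on day 3 than on day 0 and at least 2.72-fold higher on day 21 than on day 3, and lacking a day 3 level it could not be a member.

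In the Notch list of 10 measured genes, 3 were at least 2-fold lower and 1 higher on day 3 than on day 0. All measured genes had shares of 7.42% lower and 7.83% higher in that step, then 6.34% higher and 7.23% lower. On day 21 against day 3, 2 of the 10 were at least 2-fold higher and 1 lower. Hey1 was the only member. Heyl, its relative and another Notch target, had 34.3, 19.4 and 101, which is the same course with a day 3 difference of -0.84 that missed the limit. The ligand Jag1 was lower on day 3 without a 2-fold return, at 1078, 449 and 615. Notch3 was higher on each later day, at 219, 593 and 1024.

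The surface proteins were the largest group with a stated role, with 12 members. Lrp2, the endocytic receptor megalin, had the largest first difference of all members. Its signal was 171 on day 0, 27.5 on day 3 and 68.5 on day 21. It was 6.31-fold lower on day 3 than on day 0 and 2.28-fold higher on day 21 than on day 3. On day 21 it was still 2.77-fold below day 0. Its relative Lrp1 differed by -0.20 and 0.85 over the same steps (log2 differences). Cnr1, the cannabinoid receptor CB1, made a nearly symmetric dip at 183, 40.9 and 189. It was 4.54-fold lower on day 3 than on day 0 and 4.24-fold higher on day 21 than on day 3. The cannabinoid receptor Cnr2 had 179, 144 and 112, and was lower on each later day.

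Other receptors coupled to G proteins were Adrb3 and Npy1r. Adrb3, the beta-3 adrenergic receptor known from fat cells, had 218, 101 and 505 on days 0, 3 and 21. A second Adrb3 probe was above background on days 0 and 21 only and moved the same way, a direction largely set by that detection pattern. Npy1r, a receptor for neuropeptide Y, had 286, 85.2 and 217. Dcc, the netrin receptor, had 2358, 1064 and 4018, and was 2.25-fold lower on day 3 than on day 0 and 3.46-fold higher on day 21 than on day 3. That course rests on 1 probe of 3, since the other two were not above background on any array. Its relative Neo1 had 1445, 670 and 1373, and missed the rule with a second difference of 0.91. In the list of 28 measured axon guidance and neurotrophic genes, 9 were at least 2-fold lower and 4 higher on day 3 than on day 0. All measured genes had shares of 7.42% lower and 7.83% higher in that step, then 6.34% higher and 7.23% lower. On day 21 against day 3, 7 of the 28 were at least 2-fold higher and 3 lower. Dcc was the only member there, since Bdnf and Ntf3 were lower on day 3 and stayed low, with day 21 minus day 0 of -2.60 and -2.62.

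Transporters and channels made up 3 more. Slc6a6, the taurine transporter, had 2904, 892 and 2107 on days 0, 3 and 21. Slc40a1, the iron exporter ferroportin, had 84.5, 31.6 and 72.3. Piezo2, a mechanically gated channel, had 206, 77.3 and 238. It had 1 other probe above background on days 0 and 21 only, which largely set that it moved alike. The far brighter Piezo1 had 15181, 8819 and 6875 and did not come back. Of 17 measured ion channel genes, 5 were at least 2-fold lower and 5 higher on day 3 than on day 0. The shares of all measured genes were 7.42% and 7.83%. On day 21 against day 3, 1 of the 17, Piezo2, was at least 2-fold higher and 3 were lower, beside 6.34% and 7.23%. Pigr, the polymeric immunoglobulin receptor of epithelia, had 3876, 1652 and 4030, and its second probe was not above background on any array. Apcdd1, a membrane inhibitor of Wnt signalling, had 45.2, 22.9 and 90.5, and the adhesion protein Flrt1 had 38.5, 18.7 and 45.0. Another Flrt1 probe, above background on every array, had 31.5, 15.7 and 21.9, with a second difference of only 0.35.

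H2-Q4 stood apart from its family. It encodes a class I histocompatibility molecule of the Q region and had 13399 on day 0, 4755 on day 3 and 18148 on day 21. It was 2.86-fold lower on day 3 than on day 0 and 3.49-fold higher on day 21 than on day 3. H2-K1 had 1255, 3782 and 8774, and was higher on each later day. H2-D1, H2-Q2, H2-Q6, H2-Q7 and H2-Q10 were also all higher on day 3 than on day 0, by 0.83, 1.60, 1.34, 0.79 and 1.58 on the log2 scale. Of the 14 measured interferon response genes 13 were at least 2-fold higher on day 3 than on day 0, against 7.83% of all measured genes. The sequences of this family are near-identical and H2-Q4 had 1 probe, so which transcript that probe read was not tested.

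**Figure D4:**
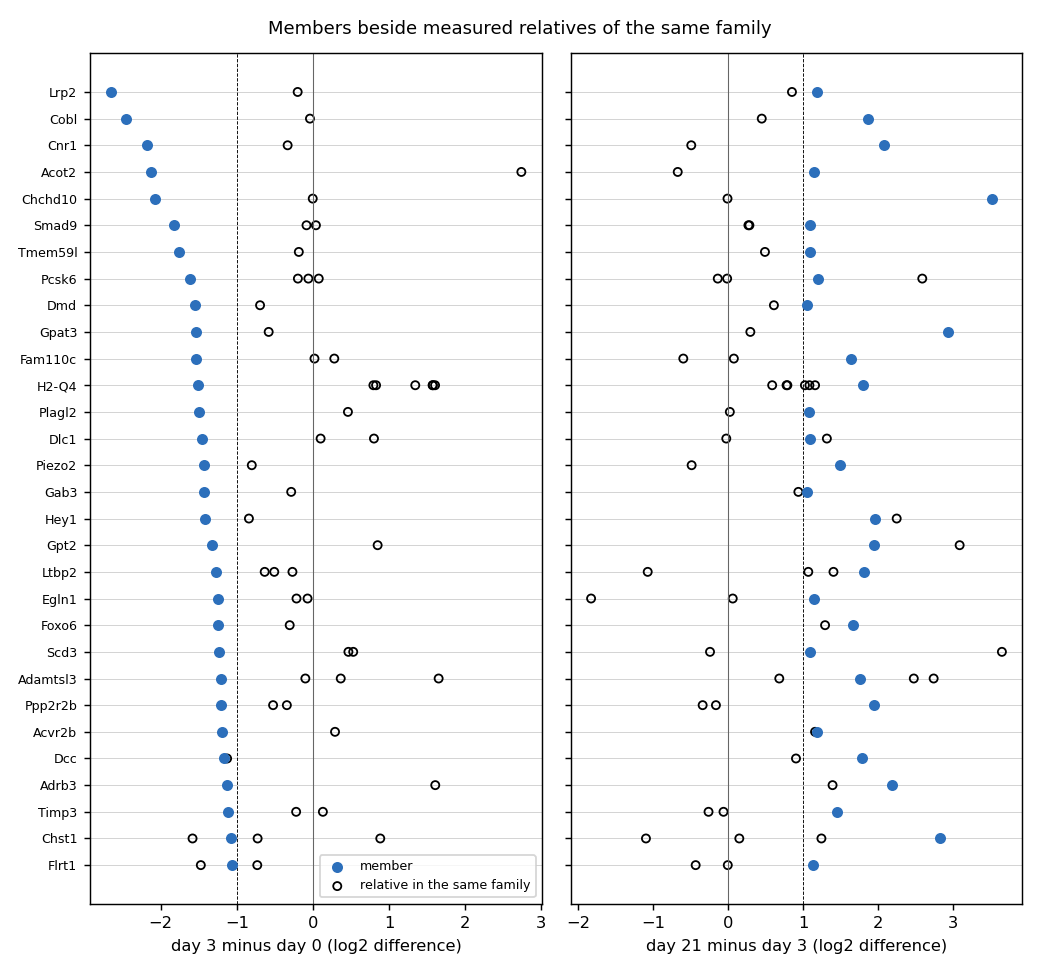
Log2 differences of day 3 minus day 0 (left) and day 21 minus day 3 (right) for 30 members (filled blue) and 51 measured relatives from the same gene families (open black), with the rule's limits dashed. The H2 relatives lie to the right of 0 on day 3 where H2-Q4 is at -1.51, and Acot1 is at 2.74 where Acot2 is at -2.13.

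A list of close relatives was drawn up for the members after their values were seen, from non-members only. It held 51 genes measured on all 3 arrays, relatives of 30 members. On day 3 against day 0, 3 of the 51 were at least 2-fold lower and 7 at least 2-fold higher, with a median of -0.06 on the log2 scale. On day 21 against day 3, 16 were at least 2-fold higher, with a median of 0.45. A relative that passed both steps would have been a member and so left off the list. The list therefore cannot show whether a family gave a second member. Acvr2a differed from Acvr2b in the first step and was alike in direction in the second, at 0.29 and 1.16 against -1.19 and 1.18. The measured relatives of Ltbp2 (-1.27 and 1.81) all were lower on day 3 by less. In the second step Ltbp4 (-0.27 and 1.41) and Ltbp3 (-0.51 and 1.07) were higher, and Ltbp1 (-0.63 and -1.07) was lower (log2 differences). With spike-in scaling the first difference changed sign in 11 of the 51 relatives, Acvr2a among them, and the second in 10.

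Of the 3 transcription factors outside those pathways, Gcm1 had the best probe coverage. It is known for the formation of the placental syncytiotrophoblast. Its signal was 1895, 642 and 3286 on days 0, 3 and 21, which is 2.99-fold lower on day 3 than on day 0 and 4.68-fold higher on day 21 than on day 3. Another Gcm1 probe had 1490, 558 and 1637, and 1 more had 219, 96.3 and 263, so 3 probes passed both steps. The remaining probe was not above background on any array. Plagl2, a zinc finger factor, had 46.4, 16.7 and 38.3, and Foxo6, a forkhead factor, had 38.8, 16.6 and 57.6. Another Plagl2 probe, above background on day 0 only, had 27.3, 7.32 and 6.07 and did not come back. Foxo1 differed by -0.31 on day 3 against day 0 and 1.30 on day 21 against day 3 (log2 differences).

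The 5 cytoskeleton members mostly stopped short of day 0. Cobl, a nucleator of actin filaments, had 887, 164 and 654 on days 0, 3 and 21. It was 5.50-fold lower on day 3 than on day 0 and 3.66-fold higher on day 21 than on day 3. Its second probe was above background on days 0 and 21 only, which largely set that it moved the same way. Tppp3, a tubulin polymerisation protein also used as a marker of tendon sheath cells, had 852, 267 and 840. Dlc1, a GTPase activator and tumour suppressor, had 453, 167 and 389. Dmd, dystrophin, had 45.3, 15.8 and 35.8, and a second Dmd probe passed both steps as well (-1.34 and 2.17). Shtn1, shootin, had 32.9, 15.2 and 47.9 and was the only 1 of the 5 above its day 0 level on day 21. The contractile list held no member. Of its 19 measured genes, 13 were at least 2-fold lower on day 3 than on day 0, against 7.42% of all measured genes. None of the 19 was at least 2-fold higher on day 21 than on day 3, against 6.34%.

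The 7 members in protein turnover, oxygen sensing and signalling adaptors were dim on the whole. Egln1 encodes the prolyl hydroxylase PHD2, which marks hypoxia-inducible factor for decay. It had 57.0, 24.4 and 58.97 on days 0, 3 and 21, while Egln2 differed by -0.07 and 0.06 and Egln3 by -0.22 and -1.83 over the same steps (log2 differences). Of 29 measured hypoxia and glycolysis genes, 7 were at least 2-fold lower and 3 higher on day 3 than on day 0. All measured genes had shares of 7.42% lower and 7.83% higher in that step, then 6.34% higher and 7.23% lower. On day 21 against day 3, 3 of the 29 were at least 2-fold higher and 5 lower. Egln1 was the only member, and Vegfa had 1726, 282 and 437. Gab3, an adaptor of receptor signalling, was the brightest of the 7 at 1312, 494 and 1118. A second Gab3 probe was not above background on day 0 and ran the other way on day 3. Ubxn2a, a cofactor of the p97 ATPase, had 176, 67.2 and 161, and its second probe moved the same way by less. Svip, an inhibitor of the same ATPase, had 55.6, 19.9 and 48.0. Fbxo45, an F-box protein, Ppp2r2b, a regulatory subunit of protein phosphatase 2A, and Ccdc50 had day 3 signals of 17.9, 12.8 and 44.7.

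The last 11 members have other or little-described roles. Bean1 had 180 on day 0, 29.1 on day 3 and 86.7 on day 21. It was 6.26-fold lower on day 3 than on day 0 and stayed 2.29-fold below day 0 on day 21. Wscd2 had 656, 154 and 505, and Tmem59l had 511, 153 and 358. Only 3 of the 11 were above their day 0 level on day 21, by at most 0.11 on the log2 scale. Fbxl12os, a transcript antisense to Fbxl12, had 2204, 1107 and 2606, whereas Fbxl12 differed by -0.36 and -0.25 (log2 differences). Slfn9 and Speer5-ps1 belong to families of near-identical copies. The members Pnma2, Fam110c, N4bp3, B020031M17Rik and 1700066B19Rik ran between -1.69 and -1.33 on day 3 against day 0.

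Just inside the limit on day 3 were Apcdd1 (-1.001), Fbxl12os (-1.01) and Ccdc50 (-1.05), and just outside were Rhox8 (-0.99), Thbd (-0.98) and Mmd (-0.97). On day 21 against day 3, Uprt (1.01), B020031M17Rik (1.03) and Speer5-ps1 (1.03) were just inside, and BC031361 (0.99) and Sh3rf2 (0.99) just outside. In 19 members the smaller step lay within 1 technical SD of a difference, 0.11, of the limit. That SD is a median over probes spotted 10 times, and was 0.27 for those under 50 on day 3. Since 28 members were under 50 on day 3, the count of 19 is too low for dim members. Outside the members, the genes nearest to their mean profile over the 3 arrays by Euclidean distance were Nr1d1 (0.36), Thbd (0.38), Nr1d2 (0.40), Fzd7 (0.42) and D3Ertd751e (0.43). Nr1d1, a repressor of the circadian clock, had 187, 52.8 and 247 on days 0, 3 and 21, and Nr1d2 had 153, 39.7 and 125. Of 11 measured clock genes, 2 were at least 2-fold lower on day 3 than on day 0, and they were this pair. The share of all measured genes was 7.42%. Per1, also a clock repressor, was higher on day 3, at 957, 3086 and 3720.

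Many members were dim on day 3. On that array 28 of the 59 (47.5%) had a signal under 50, against 12.9% of all measured genes, and on day 0 it was 20.3% of members against 13.4%. The members' median signal was 176, 54.4 and 189 on days 0, 3 and 21, and that of all measured genes was 476, 468 and 486. Each member's probe had 1 spot per array. Probes spotted 10 times gave a median technical SD of 0.11 for day 3 minus day 0 and of 0.27 among the 31 such probes under 50 on day 3 (log2 differences). The median SD of the members' first difference was 0.22 by the scanner software's error estimate. In both steps all 59 were at least 3 such SDs, but the rule's 2-fold limit largely set that count, so it supports nothing. Neither SD takes in the spread between cultures or animals. With normexp background correction, which here includes an offset of 50, 18 genes passed both steps, all of them members. With scaling to spike-in controls 360 genes passed, the 59 members among them. That scaling moved every difference between day 3 and day 0 by -0.64 and every difference between day 21 and day 3 by 0.39.

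**Figure D5:**
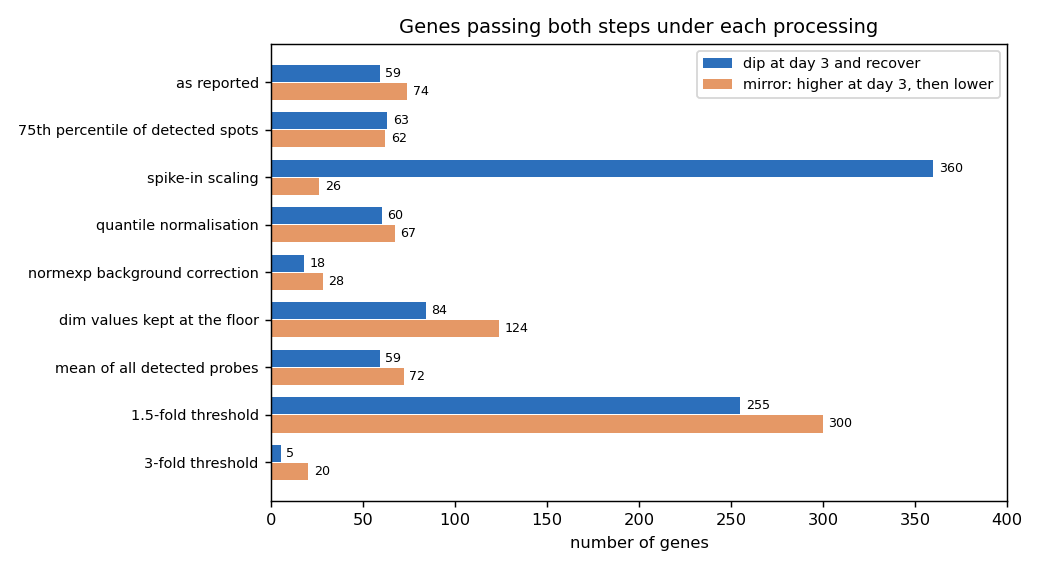
Number of genes (horizontal axis) that pass both steps (blue) or hold the mirror pattern (orange) under each processing (vertical axis). The 59 and 74 genes as reported become 360 and 26 with spike-in scaling, and 18 and 28 with normexp background correction.

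A second look at the dip came from other probes of the same genes, which share the RNA and the arrays. Among the 23 members with more than 1 probe there were 35 other probes, and 9 of them were above background on all 3 arrays. Of these 9, 7 had the same signs in both steps and 3 passed 2-fold in both, namely the probe of Dmd and both of Gcm1. The second probe of Scd3 was among the 2 that differed. Another 6 were above background on days 0 and 21 but not on day 3. All 6 had the same signs, but their grouping by detection largely set that, so it supports nothing. There were 16 above background on no array. They included every other probe of Dcc, F10, Pigr, Fbxl12os, Cela3a, Foxo6, Ppp2r2b and Speer5-ps1. The remaining 4 probes were above it on 1 array or on another pair.

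The rule could not see genes that dropped out on day 3. There were 166 genes above background on days 0 and 21 only, and 25 of them were at least 2-fold in both steps by a bound. For a bound, day 3 was taken at the probe's own signal or, where that was lower, at the lowest signal above background on that array, 10.5. Coch, an extracellular matrix protein of the inner ear, was at least 3.15-fold lower on day 3 than on day 0 and at least 36.9-fold higher on day 21 than on day 3. Mlxipl, the glucose-responsive factor ChREBP, was at least 2.47-fold lower and then at least 23.6-fold higher. Atf3, a stress-induced factor, was at least 8.21-fold lower on day 3 than on day 0 and at least 2.00-fold higher on day 21 than on day 3. Lefty2, an antagonist of Nodal, was at least 2.23-fold lower and then at least 2.23-fold higher. These 4 were picked with their values known.

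The members were spread over 20 chromosomes, with 9 of the 59 (15.3%) on chromosome 8, which held 5.44% of all measured genes. They were Adrb3, Bean1, Dlc1, Egln1, F10, Gpt2, Npy1r, Tmem59l and Tppp3, which share no family. This count was singled out after it was seen. RefSeq promoters were matched for 35 members, with 40 windows of 300 bases. Their median GC content was 62.3%, against 60.7% in the windows of measured genes and 52.7% in all 32851 windows. The ratio of observed to expected CpG was 0.60 in members, 0.74 in windows of measured genes and 0.38 in all windows.

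Short motifs were searched on both strands, and a match is a description of letters only. The E-box CACGTG, the site read by clock and Myc-type factors, was in 10% of members' windows (Bean1, Cnr1, N4bp3 and Pigr), against 9.87% in measured genes and 7.15% in all. In the printed Cnr1 window it begins at position -49 from the start, and it contains the hypoxia response core ACGTG. That core was in 20% of members' windows, 25% in measured genes and 19.6% in all. The nuclear receptor core site AGGTCA, which REV-ERB and ROR factors also read, was in 12.5%, against 12.6% and 16.3%. The Chchd10 window holds it at position -112. The D-box core TTATGNAA was in 2.50%, against 2.06% and 3.38%, and the 1 window was that of Esm1, where it begins at position -20. The GC box GGGCGG was in 57.5%, against 61.7% in measured genes and 35.7% in all. In Cyp26b1 it lies at positions -174, -165 and -34, beside a TATA box (TATAAA) at -139.

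For other motifs the shares were set side by side with no test of a difference. The CCAAT box (CCAAT) was in 20%, against 37.4% in measured genes and 37.4% in all. The RUNX site TGTGGT, read by the osteoblast factor Runx2, was in 5.00% (Ccdc50 and Svip), against 12.3% and 16.8%. The C/EBP site TTGCNNAA was in 2.50%, against 8.45% and 10.8%, and the forkhead site TGTTTAC was in none of 40, against 2.51% and 3.65%. The TATA box was in 7.5%, against 7.44% and 13.6%. The AP-1 site TGANTCA (7.5%), the TEAD site GGAATG (10%) and the cAMP response element TGACGTCA (2.50%) compare with 5.16%, 12.4% and 3.01% in measured genes and 7.81%, 14.7% and 1.79% in all. The interferon response element was in 2.50%, against 2.79% and 3.44%, and the CArG box in none, against 0.0321% and 0.0639%. With 40 windows, 1 window is 2.50%. No motif was in most of these windows beyond the GC box, which most windows of measured genes have too.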

How the data were processed

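Each of 3 samples (day 0, day 3 and day 21, grouped by their labels) was measured on 1 array. Spot intensity was deposited as Agilent Feature Extraction wrote it: linear, with background subtraction and detrending inside each array but no scaling across arrays, per the file headers. The headers give version 10.10.1.1 and the submitters' processing notes 12.0. The series' value table repeated this intensity exactly (largest relative difference 0), linear and uncentred. The array medians were 7.35, 7.46 and 8.46 over 62976 spots.

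The processed signal was put on the log2 scale and each array's 75th percentile over 59305 non-control spots subtracted (172, 175 and 191). The signals quoted are unscaled and the differences scaled. Flagged spots (200, 115 and 146) were left out and repeat spots averaged. A probe counted as well above background with at least 50% of its spots so marked. No spot was saturated. Of 55664 usable probes 26755 matched 1 gene of the RefSeq table for GRCm38.p6 by unversioned accession, and 28909 were unnamed. The brightest probe stood for a gene. The arrays' number limits the precision.

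The members and gene lists were chosen with earlier results of these data known. Members are named by a fixed rule (in a list, largest smaller step, highest and lowest on day 21 against day 0, brightest, nearest to a threshold); other members are named by role, chosen after their values were seen. Other scalings, background correction, thresholds, probe choice and filters were tried, and some genes are not reported here. The selection was tested on simulated data. Python 3.11.15, pandas 2.3.3, R 4.3.3 and limma 3.58.1 (normexp only) were used.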

Additional observations from a re-analysis of the deposited data

Results flagged for a closer look

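Probes with no gene name were outside the comparisons and showed the same pattern. Of 7334 unnamed probes above background on all 3 arrays, 114 passed both steps (1.55%), with 106 distinct identifiers among them. Of the named genes 0.524% did, but those count 1 probe per gene and the unnamed ones every probe, so the shares are not alike in unit. Of the unnamed probes, 74 (1.01%) held the mirror pattern. Among the 114, 36 had a day 0 signal of at least 1000, with day 3 minus day 0 between -2.29 and -1.14. Of the 3254 unnamed probes identified by a genome interval, 23 dipped and came back (0.707%), and 39 (1.20%) held the mirror pattern.

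A group of 6 of the 114 probes lay in 3 intervals between 14 and 16 Mb on chromosome 5 (coordinates as in the files). Day 3 minus day 0 was -2.78 to -2.61 and day 21 minus day 3 was 3.72 to 4.07 (log2 differences). The largest second differences among the members were 3.92 in Esm1 and 3.90 in Tg. The group was singled out after its values were seen, and no gene is named for it.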

How the results depend on the processing

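The number of members changed most with the scaling, the background correction and the threshold. Beside 59 as reported, 360 genes passed with spike-in scaling, 18 with normexp background correction, 255 at 1.5-fold and 5 at 3-fold. Spike-in scaling shifted all genes by -0.64 on day 3 against day 0 and by 0.39 on day 21 against day 3, to medians of -0.72 and 0.28. Settings chosen after seeing the data gave 31 members with a day 3 signal of at least 50, 24 when 2 technical SDs were added to the limit, and 52 without near-identical families, the antisense transcript and the pseudogene. The median of day 3 minus day 0 over each set's members was -0.97 at 1.5-fold and -2.22 at 3-fold. That of day 21 minus day 3 was 1.66 with normexp, 0.91 at 1.5-fold, 3.53 at 3-fold, 1.49 with the signal limit and 1.76 with the added SDs. That of day 21 minus day 0 was 0.36 with normexp, 1.34 at 3-fold, 0.080 with the signal limit and 0.20 with the added SDs. Counting dim probes too, 18 of 35 other probes had the same signs, beside 7 of 9. List members numbered 29 with spike-in scaling and 3 with normexp, beside 7. The share of members' windows with a GC box minus that of all windows was 21.8 points, and minus that of measured genes' windows -4.21 points. The cause was not tested. No member's step changed direction under any setting run.

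The percentile over detected spots gave 63 members (55 of the 59 kept), quantile normalisation 60 (55), the mean of all probes 59 (55), and dim values at the floor 84 (59). Flagged spots kept, every spot above background, and the deposited value table each gave the same 59. Under normexp 69 of the members' 118 steps were below 2-fold. The array design's gene names and normexp on the mean signal could not be run, since those columns are not used here; normexp took the median signal. No paired analysis was possible because each day has 1 array. Precision is limited most for the 28 members with a day 3 signal under 50.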
